A study of Homo sapiens with 6 samples.

Results

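The comparison described here was the time step from 24 h to 48 h in MDA-MB-231 cells kept in 100 nM PCI-24781. Every gene with an FPKM of at least 1 in the 100 nM 24 h library, the 100 nM 48 h library or both was taken, which gave 11556 of the 16623 genes in the files. FPKM is the number of sequenced fragments scaled by transcript length and by library size, so levels of different genes are given per length. MDA-MB-231 is a human triple-negative breast cancer line, PCI-24781 is a hydroxamic acid that inhibits many histone deacetylases (HDACs), and DMSO is the solvent that the control cells received. The study sequenced 6 cultures, which were treated with DMSO for 24 h, DMSO for 48 h, 100 nM for 24 h, 100 nM for 48 h, 200 nM for 24 h and 200 nM for 48 h. Each culture gave 1 library, without replicates, and therefore no difference given here could be tested. The treated cultures of the 2 times were compared with each other, and the same step in DMSO and at 200 nM, which used 4 other libraries, was set beside it.

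HDACs remove acetyl groups from histones and from other proteins, and their inhibitors raise the transcription of some genes and lower that of others within hours. Cells left in the same dish also change with time without any drug: they grow denser, consume glucose, lipids and oxygen and release cytokines. Genes of hypoxia, sterol synthesis, stress and cell contact are known to respond to such conditions.

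The libraries had the profile of the named line. In the 100 nM libraries, the intermediate filament gene VIM had an FPKM of 1677 at 24 h and 2053 at 48 h, the receptor tyrosine kinase gene AXL 486 and 356, and the hyaluronan receptor gene CD44 219 and 154. All 9 genes listed as typical of the line were expressed, and none changed by 1.5-fold between the 2 libraries. CDH1, which encodes E-cadherin, stayed at 0.39 and 0.28. Of 13 listed luminal breast genes, 11 were found, and their summed FPKM was 58.0 at 24 h and 64.4 at 48 h, most of it from XBP1, while ESR1 and PGR did not reach an FPKM of 1. The 11 blood and endothelial genes found summed to 5.50 and 5.80.

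The depth was not in the files, but low values of short genes fell in steps of 1 fragment, from which about 17400000 fragments were inferred for 100 nM 24 h and 17900000 for 100 nM 48 h. A gene of 2 kb with 3 fragments then has an FPKM of about 0.0862 or 0.0838. The 2 libraries of the 100 nM step lay furthest from the mean in base composition, in opposite directions. Among 1412 genes with the lowest GC content, the median deviation from the 6-library mean on the log2 scale was 0.08 at 24 h and -0.10 at 48 h, and among the 1412 genes with the highest GC content it was -0.06 and 0.10. In the other 4 libraries these medians lay between -0.05 and 0.04. For a set of genes that were high at 100 nM 24 h and at both times at 200 nM, the 100 nM 48 h library lay below the DMSO 48 h library, as CRIP2, a LIM-domain gene, shows with an FPKM of 4.55 against 15.02. The labels were kept as given. A property of either library, its label and the time in drug cannot be told apart with 1 library on each side, and neither could be left out. A doubt about the label of the 100 nM 48 h library also covers the DMSO 48 h values.

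From 24 h to 48 h at 100 nM, most listed genes of hypoxia, glycolysis, lipid synthesis and lysosomes were higher by any amount. Among all tested genes, 45.1% were. Genes such as ANKRD1, CCN2, CLDN1 and PCDH1 were among the largest falls. Changes are differences in log2(FPKM + 1), which understates the change of genes with low values, and a gene was counted as higher or lower at a change of at least 2-fold. Of the 11556 genes, 111 (0.961%) had a higher value and 99 (0.857%) a lower value at 48 h. At 1.5-fold, 571 (4.94%) were higher and 578 (5.00%) lower. These shares are the background for the list counts at 100 nM below. The median change was -0.04, with 5214 genes above 0 and 6314 below. Most values stayed close together: for the 6368 genes whose FPKM averaged 10 or more over the 2 libraries, the 5th and 95th percentiles of the change were -0.52 and 0.54. Near the threshold, TSC2, which encodes tuberin and was chosen after its values were seen, went from 6.72 to 14.4 and was just counted, whereas the lysyl oxidase gene LOX, from 16.4 to 33.6, was not.

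**Figure D1:**
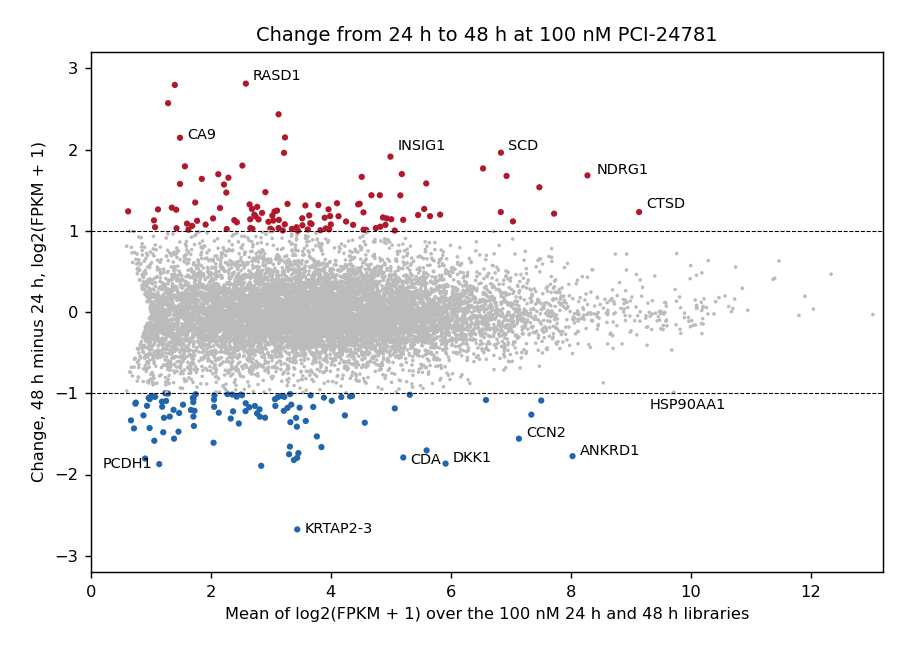
Change from 24 h to 48 h at 100 nM (vertical axis, difference in log2(FPKM + 1)) against the mean of log2(FPKM + 1) of each of 11556 genes over the 2 libraries (horizontal axis). Red points are the 111 genes at least 2-fold higher, blue points the 99 at least 2-fold lower, and dashed lines mark 2-fold.

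The largest rise belonged to RASD1 (NCBI Gene ID 51655, chromosome 17, 17397751 to 17399709 in hg19, the build of the files), a Ras-related GTPase gene known to respond to glucocorticoids. Its FPKM was 1.26 at 24 h and 14.9 at 48 h, a change of 2.81. It had 2.77 and 10.2 in DMSO and 1.36 and 11.3 at 200 nM, so it was low in all 3 24 h libraries and high in all 3 48 h libraries. SCD (NCBI Gene ID 6319, chromosome 10, 102106772 to 102124588), which encodes the desaturase that makes oleic acid, rose from 56.9 to 224. Its values were 60.7 and 206 in DMSO and 57.5 and 179 at 200 nM, and the 3 steps were 1.96 at 100 nM, 1.74 in DMSO and 1.62 at 200 nM. NDRG1 (NCBI Gene ID 10397), a gene induced by hypoxia and by differentiation, rose from 172 to 555 and was the most abundant of the 15 genes with the largest rises. It had 101 and 528 in DMSO and 343 and 688 at 200 nM.

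DDIT4, NUPR1, GDF15 and DEPP1 were also among the 15 largest rises. DDIT4, whose product restrains the growth kinase complex mTORC1, rose by 1.77, from 49.3 to 170.2, and NUPR1, a small nuclear stress protein gene, rose from 0.59 to 4.51. The stress cytokine gene GDF15 went from 1.42 to 6.84, a smaller step (1.70) than in DMSO (2.69). DEPP1, a target of FOXO factors, rose by 2.43, against 1.88 in DMSO and 0.96 at 200 nM. SIGIRR, which encodes an inhibitory receptor of the interleukin-1 family, took another course: it went from 2.08 to 9.74 at 100 nM, but was 5.41 and 3.52 in DMSO and 1.18 and 2.59 at 200 nM. ALDH3A1, an aldehyde dehydrogenase gene, likewise rose by 1.96 at 100 nM and changed by 0.45 in DMSO and 0.61 at 200 nM. NPIPA7 and SULT1A3, which were listed at 0 at 24 h and at 5.94 and 4.94 at 48 h, have near-identical copies nearby in the genome, so their values are uncertain.

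Hypoxia-inducible factors switch cells to glycolysis and raise genes for oxygen and acid handling. Of 23 such target genes outside glycolysis, 3 rose at least 2-fold, 11 rose at least 1.5-fold, and 22 were higher by any amount, with a median change of 0.58. The shares over all tested genes were 0.961%, 4.94% and 45.1%. In DMSO and at 200 nM the list medians were 0.61 and 0.43. CA9 (NCBI Gene ID 768, chromosome 9, 35673915 to 35681156), which encodes the cell-surface carbonic anhydrase used as a hypoxia marker, had an FPKM of 0.33 at 24 h and 4.88 at 48 h. This corresponds to about 9 and 141 fragments, and the log2 ratio without a pseudocount had a 95% exact binomial interval of 2.96 to 5.09, which covers counting error alone. CA9 had 1.28 and 2.10 in DMSO and 0.44 and 1.79 at 200 nM, so the 100 nM 48 h library held the highest of the 6 values. BHLHE40, a transcriptional repressor gene of the circadian and hypoxia pathways, rose from 19.2 to 64.4. The angiogenic factor gene VEGFA went from 18.7 to 34.9 and the mitophagy receptor gene BNIP3 from 156 to 268, both below 2-fold, with similar steps in DMSO of 0.88 and 0.82. HIF1A itself had 179 and 227.

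Glycolysis turns glucose into pyruvate, and its genes moved in 1 direction. All 22 listed enzymes and transporters were higher at 48 h by any amount, where 45.1% of all 11556 genes were, and 4 rose at least 2-fold. Their median change was 0.47, against 0.29 in DMSO and 0.24 at 200 nM. ALDOC, the gene of aldolase C, rose from 3.47 to 18.8, and PFKFB4, whose product makes the activator fructose 2,6-bisphosphate, from 5.11 to 14.4. The glucose transporter gene SLC2A3 rose from 12.9 to 33.7, and PFKL, a phosphofructokinase gene, from 18.7 to 39.7. The abundant GAPDH, often taken as a reference gene, had 2283 and 3531 at 100 nM, a change of 0.63, and changed by -0.07 in DMSO and -0.09 at 200 nM. For LDHA, the lactate dehydrogenase gene, the values were 984 and 1374.

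The promoters of CA9 and ALDOC are shown because both genes were among the 6 largest rises and belong to these lists. They are RefSeq sequences of GRCh38.p14, from 250 bases before to 50 bases after the start of the gene, written 5′ to 3′ on the strand of the gene. CA9 lies at chr9:35673678-35673977 (plus strand) and ALDOC at chr17:28576846-28577145 (minus strand). Capitals mark ACGTG and GCGTG, the core letters of the hypoxia response element, on either strand.
CA9: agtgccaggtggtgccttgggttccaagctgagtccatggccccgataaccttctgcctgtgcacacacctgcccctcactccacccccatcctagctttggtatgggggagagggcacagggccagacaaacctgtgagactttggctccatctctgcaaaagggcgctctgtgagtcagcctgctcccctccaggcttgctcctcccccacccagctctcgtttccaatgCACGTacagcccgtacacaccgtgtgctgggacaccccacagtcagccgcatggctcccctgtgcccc
ALDOC: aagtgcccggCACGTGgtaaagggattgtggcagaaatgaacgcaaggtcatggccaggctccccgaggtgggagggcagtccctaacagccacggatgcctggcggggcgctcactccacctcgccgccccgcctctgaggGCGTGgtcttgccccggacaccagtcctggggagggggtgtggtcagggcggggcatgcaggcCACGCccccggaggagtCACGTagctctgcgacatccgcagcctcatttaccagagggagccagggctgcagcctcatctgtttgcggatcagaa
The CA9 window held 1 match, which began 18 bases before the start (position -18), and the ALDOC window held 5, of which those at -240 and -239 overlap. Of the tested genes, 9549 had a promoter in the table, and 6102 of these (63.9%) held at least 1 match. The share was 14 of 17 (82.4%) for hypoxia targets, 14 of 21 (66.7%) for glycolysis and 15 of 18 (83.3%) for sterol synthesis. It was 44 of 87 (50.6%) for the genes at least 2-fold higher at 48 h and 33 of 71 (46.5%) for those lower, so hypoxia targets did not stand out from sterol genes. A match is a description of the sequence, and a relation of matches to promoter GC content was not tested.

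Sterol and fatty acid synthesis are under SREBF factors, which are released when membrane sterols run low. In the sterol list, 2 of 23 genes rose at least 2-fold, 11 rose at least 1.5-fold and 20 were higher by any amount. Among all tested genes these shares were 0.961%, 4.94% and 45.1%. The median change of the sterol list was 0.52, and it was 0.72 in DMSO and 0.76 at 200 nM. INSIG1 (NCBI Gene ID 3638, chromosome 7, 155089486 to 155101945), whose product holds SREBF proteins in the endoplasmic reticulum, rose from 15.4 to 60.8. It had 18.4 and 64.9 in DMSO and 14.1 and 53.8 at 200 nM, and every 48 h library was above every 24 h library. LSS, the lanosterol synthase gene, rose from 13.3 to 28.99, with smaller steps of 0.52 in DMSO and 0.38 at 200 nM. MSMO1, a later enzyme of the pathway, went from 27.9 to 47.7, a change of 0.75 against 1.57 in DMSO and 1.34 at 200 nM.

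Of 15 fatty acid genes, 4 rose at least 2-fold, SCD among them, 10 were higher and 5 lower by any amount, and none fell by 1.5-fold. By comparison, 0.961% of all genes rose at least 2-fold, 45.1% were higher by any amount and 5.00% fell at least 1.5-fold. The median of the fatty acid list was 0.28, beside 0.30 in DMSO and 0.29 at 200 nM. FASN, the fatty acid synthase gene, rose from 32.4 to 74.7, the desaturase gene FADS2 from 88.1 to 192, and the regulator gene SREBF1 from 9.80 to 26.3. The same 3 genes had steps of 0.98, 0.94 and 0.90 in DMSO and of 0.98, 0.97 and 0.39 at 200 nM. At 100 nM their steps were 1.18, 1.115 and 1.34, so all 3 had their largest step there, a difference that was not tested.

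Lysosomes break down proteins, lipids and organelles. Of 28 lysosome and autophagy genes, 3 rose at least 2-fold, 5 rose at least 1.5-fold, 26 were higher by any amount, and the median was 0.29. Over all genes these shares were 0.961%, 4.94% and 45.1%, and the median was -0.04. CTSD, which encodes the protease cathepsin D, rose from 367 to 862 and was the most abundant gene of the list. SQSTM1, the gene of the autophagy adaptor p62, rose from 138 to 320.0, and NPC1, a lysosomal cholesterol transporter gene, from 36.3 to 84.7. In DMSO these 3 genes had steps of 0.64, 0.63 and 0.93, but 10 genes of the list rose at least 1.5-fold there and its median was 0.27. NPC2, the gene of a soluble cholesterol carrier, had 289 and 267 at 100 nM, and 183 and 363 in DMSO and 326 and 411 at 200 nM. NEU1, a sialidase gene, went from 15.8 to 31.1, whereas it had 18.6 and 21.5 in DMSO and 29.2 and 25.2 at 200 nM.

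The integrated stress response list, whose genes are under the factor ATF4, was split. Of 21 genes, 4 rose at least 2-fold, none fell as far, and 4 fell at least 1.5-fold, with a median of 0.17. The shares over all genes were 0.961%, 0.857% and 5.00%. DDIT3, the gene of the death-related factor CHOP, rose from 7.24 to 17.8, and CEBPB, a partner factor, from 27.97 to 65.3. The amino acid transporter gene SLC7A5 was at 107 and 57.8, a change of -0.88, and was also lower with time in DMSO (-0.94) and at 200 nM (-1.49). TXNIP, a glucose-responsive inhibitor of glucose uptake that HDAC inhibitors often raise, rose from 67.2 to 217, and it had 68.2 and 161 in DMSO and 132 and 234 at 200 nM. BBC3, which encodes the pro-death protein PUMA, rose from 1.76 to 7.68, while the median of 22 p53 and death genes was -0.03.

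Cytokine genes rose in part. Of 25 cytokine and NF-kappaB target genes, 5 rose at least 2-fold at 100 nM, against 10 of 25 in DMSO and 8 of 24 at 200 nM. The list medians were 0.24, 0.81 and 0.77. Over all genes tested, 0.961%, 2.49% and 0.748% rose at least 2-fold in these steps. CSF1, the macrophage growth factor gene, rose from 104 to 302, and the adhesion molecule gene ICAM1 from 20.7 to 57.7. Their steps of 1.535 and 1.435 were smaller than in DMSO, where they were 1.69 and 1.88. IL6 rose from 4.29 to 10.4 and IL1B from 10.0 to 21.3, both also by less than in DMSO, where the steps were 2.12 and 3.14. IL24, a cytokine of the interleukin-10 family chosen after its values were seen, went the other way, with 4.74 and 2.15 at 100 nM and 0.43 and 10.1 in DMSO and 10.6 and 20.5 at 200 nM.

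Interferon-stimulated genes form the antiviral programme of the cell. Of 29 tested, 1 rose at least 2-fold, 7 rose and 2 fell at least 1.5-fold. The median was 0.33, beside 0.04 in DMSO and 0.32 at 200 nM. At 100 nM, 0.961% of all genes rose at least 2-fold, and 4.94% rose and 5.00% fell at least 1.5-fold. IRF7, a factor that drives interferon genes, rose from 1.09 to 4.32 at 100 nM, with 2.17 and 2.28 in DMSO and 1.69 and 1.86 at 200 nM. IFI35 and IRF9 went from 7.86 to 15.6 and from 6.63 to 12.6. PSMB10, an immunoproteasome subunit gene of antigen presentation, rose from 3.24 to 8.35, with 8.72 and 7.18 in DMSO and 0.98 and 2.59 at 200 nM, so that the 100 nM 48 h value lay close to DMSO.

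**Figure D2:**
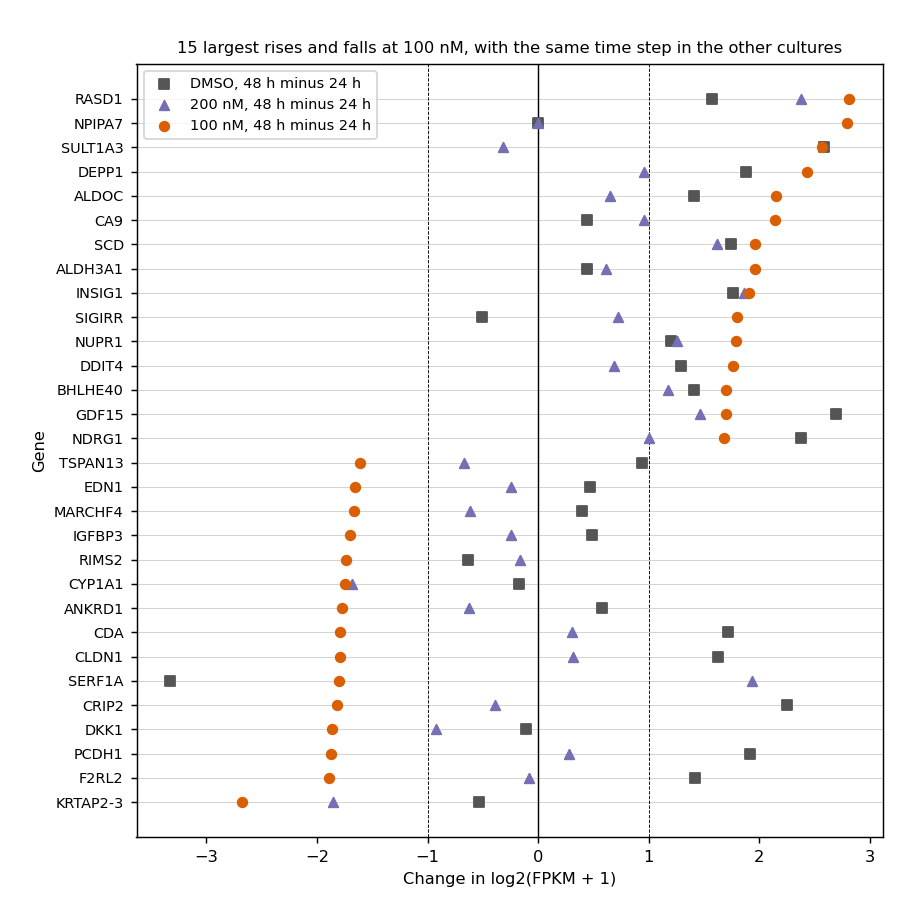
Change from 24 h to 48 h, as a difference in log2(FPKM + 1), of the 15 genes with the largest rise and the 15 with the largest fall at 100 nM (circles), with the step of the same genes in DMSO (squares) and at 200 nM (triangles). Dashed lines mark 2-fold, and most of the rises lie on the same side of 0 in all 3 steps while many of the falls do not.

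The largest fall was that of KRTAP2-3 (NCBI Gene ID 730755, chromosome 17, 39215492 to 39216344), a hair keratin-associated protein gene, from 26.4 to 3.29, about 402 and 52 fragments. It was also lower with time in the other cultures, with 11.7 and 7.78 in DMSO and 49.2 and 12.9 at 200 nM. DKK1, which encodes a secreted inhibitor of Wnt signalling, had 114 at 24 h and 30.5 at 48 h, and 61.0 and 56.7 in DMSO and 214 and 112 at 200 nM. CYP1A1, a cytochrome gene induced through the aryl hydrocarbon receptor, fell by 1.75 at 100 nM, from 17.1 to 4.38, and changed by -1.68 at 200 nM and -0.17 in DMSO. These 3 genes were highest in the 200 nM 24 h library.

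Other large falls had the opposite course in DMSO. CDA (NCBI Gene ID 978, chromosome 1, 20915444 to 20945401), which encodes cytidine deaminase, went from 67.7 to 18.9 at 100 nM and had 15.9 and 54.7 in DMSO and 67.7 and 83.9 at 200 nM. CRIP2 fell from 18.6 to 4.55, with 2.37 and 15.02 in DMSO and 39.6 and 30.1 at 200 nM. For CLDN1, a tight junction gene, the values were 19.2 and 4.81 at 100 nM, and 4.60 and 16.4 in DMSO and 24.7 and 31.0 at 200 nM. F2RL2, a receptor gene of the thrombin receptor family, had 12.8 and 2.71, and 2.37 and 8.01 in DMSO and 19.0 and 17.9 at 200 nM. In each of these 4 genes the 100 nM 48 h value lay between the 2 DMSO values and below all of the other treated libraries. SERF1A, listed at 0 at 48 h, has a near-identical copy and is uncertain.

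PCDH1, a protocadherin gene, fell by 1.87, from 3.21 to 0.15, or from about 214 to 10 fragments. The exact binomial interval of its log2 ratio without a pseudocount was -5.54 to -3.55, again counting error alone. It had 0.08 and 3.08 in DMSO and 10.2 and 12.5 at 200 nM. Of the 99 genes at least 2-fold lower at 100 nM, 28 were at least 2-fold higher with time in DMSO, and 74 were higher there by any amount. Among all 11556 genes, 277 (2.4%) and 5738 were. At 200 nM, 62 of the 99 were lower with time and 36 higher, beside 5794 and 5723 of all genes. The median FPKM of the 99 genes was 7.88 at 100 nM 24 h and 2.98 at 100 nM 48 h, beside 3.89 and 5.68 in DMSO and 8.70 and 8.16 at 200 nM.

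**Figure D3:**
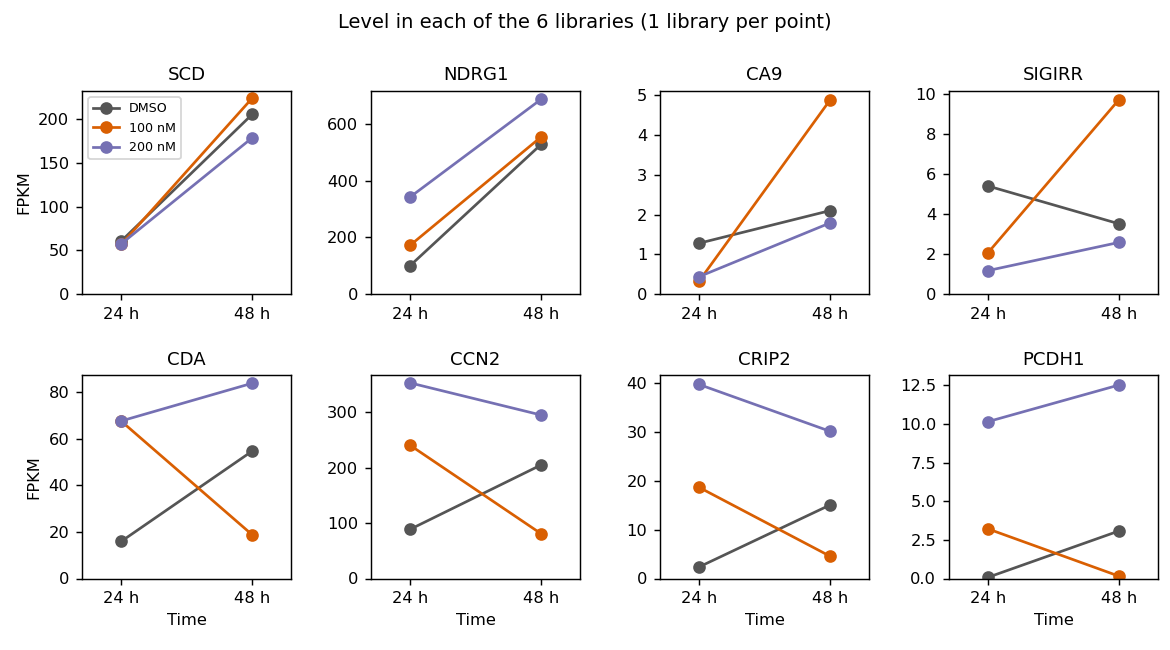
FPKM of 8 genes at 24 h and 48 h in DMSO (grey), 100 nM (orange) and 200 nM (purple), 1 library for each point, each panel with its own axis from 0. SCD and NDRG1 were higher at 48 h in all 3 cultures, CA9 and SIGIRR were highest in the 100 nM 48 h library, and the 4 genes of the lower row were lower at 48 h at 100 nM and higher in DMSO.

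Matrix proteins and targets of TGF-beta and of YAP, a factor sensitive to cell contact, held more falls of at least 2-fold than any other list. Of 25 genes, 5 fell at least 2-fold and 1 rose, with a median of -0.18. At 1.5-fold 6 fell, against 7 in the replication list. By comparison, 0.857% of all genes fell and 0.961% rose at least 2-fold, and 5.00% fell at least 1.5-fold. In DMSO 5 of 26 matrix genes rose at least 2-fold, none fell and the median was 0.44. There, 2.49% of all genes rose as far. At 200 nM none of the matrix genes passed 2-fold in either direction, with a median of 0.07. ANKRD1 (NCBI Gene ID 27063, chromosome 10, 92671857 to 92681032), a YAP target, fell from 482 to 140.2. It had 191 and 285 in DMSO and 816 and 528 at 200 nM. CCN2 (NCBI Gene ID 1490, chromosome 6, 132269316 to 132272518), the connective tissue growth factor gene, fell from 240.3 to 80.9 and had 88.8 and 205 in DMSO and 353 and 295 at 200 nM. In both genes the 100 nM 48 h library held the lowest of the 6 values.

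The remaining matrix genes took the same course or varied. THBS1, which encodes the matrix protein thrombospondin 1, fell from 28.2 to 11.1. TNC, the tenascin C gene, fell from 4.10 to 1.09, and rose from 0.51 to 4.36 in DMSO. CCN1, the most abundant gene of the list, had 503 and 274, a change of -0.87. COL6A1, a collagen gene chosen after its values were seen, rose from 6.15 to 13.5. Outside this list, IGFBP3, whose product binds insulin-like growth factors, fell from 86.3 to 25.8, EDN1, the endothelin gene, from 16.7 to 4.61, and AREG, a ligand of the EGF receptor, from 9.50 to 3.42.

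The promoters of CCN2 and ANKRD1 are shown because these genes had the largest falls of the list. CCN2 lies at chr6:131951323-131951622 and ANKRD1 at chr10:90921038-90921337, both on the minus strand of GRCh38.p14. Capitals mark GGAATG, the letters of the element bound by TEAD factors, the partners of YAP, on either strand.
CCN2: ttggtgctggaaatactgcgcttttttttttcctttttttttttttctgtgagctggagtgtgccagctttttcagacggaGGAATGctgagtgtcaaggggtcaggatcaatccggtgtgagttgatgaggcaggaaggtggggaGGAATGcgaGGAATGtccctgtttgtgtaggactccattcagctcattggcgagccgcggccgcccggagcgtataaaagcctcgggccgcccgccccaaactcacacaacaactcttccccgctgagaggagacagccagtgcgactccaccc
ANKRD1: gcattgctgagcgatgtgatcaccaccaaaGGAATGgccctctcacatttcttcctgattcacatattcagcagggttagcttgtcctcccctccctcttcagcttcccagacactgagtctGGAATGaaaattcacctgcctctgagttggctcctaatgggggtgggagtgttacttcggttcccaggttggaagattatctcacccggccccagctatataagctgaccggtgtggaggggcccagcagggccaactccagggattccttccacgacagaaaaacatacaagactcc
CCN2 held 3 matches, at positions -169, -104 and -95, and ANKRD1 held 2, at -220 and -128. Over all tested genes, 1008 of 9549 promoters (10.6%) held at least 1. The share was 4 of 20 in the matrix list, 16 of 71 (22.5%) among the genes at least 2-fold lower and 17 of 87 (19.5%) among those at least 2-fold higher, so it did not separate the directions.

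Calcium-dependent exocytosis releases stored vesicles, and many of its genes stayed below an FPKM of 1 in both libraries. Of 33 exocytosis genes found, 13 were tested, 1 fell at least 2-fold and 0 rose, with a median of -0.26, beside 0.30 in DMSO and 0.03 at 200 nM. Across all genes tested at 100 nM, 0.857% fell and 0.961% rose at least 2-fold. The exocytosis gene that fell was RIMS2, an organiser of vesicle release sites, from 19.1 to 5.02. SYTL2, a synaptotagmin-like gene, had 5.07 and 2.97, and SYT12 0.49 and 1.84. UNC13D, the most abundant gene of the list, had 21.1 and 39.05, a change of 0.86. RGS2, whose product restrains Gq signalling, had 8.23 and 5.08, a change of -0.60, whereas its change with time was 0.44 in DMSO and 0.50 at 200 nM. PLCB3, a phospholipase C gene downstream of Gq, had 30.9 and 36.7. ORAI3, a calcium channel gene, rose from 8.96 to 21.3, with a like step in DMSO (1.13). The calcium-binding S100A4, which is associated with cell motility, rose from 14.5 to 41.0.

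Genes of adhesion and of cell identity showed no common direction. Of 23 epithelial genes, 1 rose and 1 fell at least 2-fold, namely ELF3, an epithelial factor gene at 0.40 and 2.36, and CLDN1. The median was 0.07, beside 0.37 in DMSO and 0.06 at 200 nM. Among 17 mesenchymal genes the median was -0.12, with S100A4 the single gene past 2-fold. FN1, the fibronectin gene, had 52.9 and 92.4, SNAI2, an EMT factor gene, 4.07 and 2.59, and ZEB1 61.7 and 55.1. Among 12 matrix protease genes, 2 fell at least 2-fold: the collagenase gene MMP1, from 14.03 to 5.82, and ADAMTS1, from 4.94 to 1.92. MMP1 was higher with time in DMSO (9.44 and 14.1) and at 200 nM (8.16 and 14.9).

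Proliferation genes were lower by small amounts. Of 38 replication genes, 31 were lower by any amount, 7 fell at least 1.5-fold and 1 fell at least 2-fold. Among all 11556 genes, 6314 were lower by any amount, 5.00% fell at least 1.5-fold and 0.857% at least 2-fold. The medians of the replication list were -0.27 at 100 nM, -0.38 in DMSO and 0.12 at 200 nM. This list was therefore lower with time at 100 nM and in DMSO and higher at 200 nM. CCNE2, the cyclin E2 gene of the entry into S phase, fell from 20.3 to 9.24, while PCNA, the clamp of DNA polymerase, had 105 and 100.2. Of 30 mitotic genes, 27 were lower by any amount and 0 passed 2-fold, with a median of -0.25. CDC20, an activator of the anaphase complex, had 175 and 118.

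Chaperones help proteins to fold. In the heat shock list the median was -0.29, and HSP90AA1 had 1184 and 596, just short of 2-fold, with changes of -0.69 in DMSO and -0.88 at 200 nM. In the endoplasmic reticulum, 10 of 15 chaperone genes were lower by any amount (median -0.15), beside 6314 of all 11556 genes. In DMSO 11 were higher (median 0.15), and at 200 nM 12 were (median 0.32). Among all genes tested in these steps, 49.6% and 49.5% were higher. SDF2L1 was the single gene of the list past 2-fold at 100 nM, from 13.6 to 5.44. The 79 cytosolic ribosomal protein genes stayed between -0.44 and 0.22, and none of 78 respiratory chain genes passed 1.5-fold.

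According to the paper, PCI-24781 inhibits some of the zinc-dependent HDACs, HDAC1 among them, and HDAC5 is not named there. With 1 added to each FPKM, none of the 11 zinc-dependent HDAC genes passed 2-fold, and the median was 0.15. HDAC5 had 6.29 and 13.17, a change of 0.96 that became 1.01 with 0.5 added and 1.05 with 0.1 added, and a larger step of 1.38 in DMSO, while HDAC1 had 71.8 and 72.1. Genes that HDAC inhibitors raise in many cell types had a median of 0.36 over 12 genes, beside 0.44 in DMSO and -0.09 at 200 nM, and TXNIP was the single gene past 2-fold. KLF2, a transcription factor gene of the Krüppel-like family, had 20.04 and 37.6 at 100 nM, and 30.6 and 25.2 in DMSO and 20.4 and 16.1 at 200 nM, so the 100 nM 48 h value was the highest of the 6. CDKN1A, the gene of the cell cycle inhibitor p21, was named after its values were seen: it had 30.6 and 25.8 at 100 nM and 13.18 and 44.3 in DMSO and 48.8 and 52.9 at 200 nM.

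**Figure D4:**
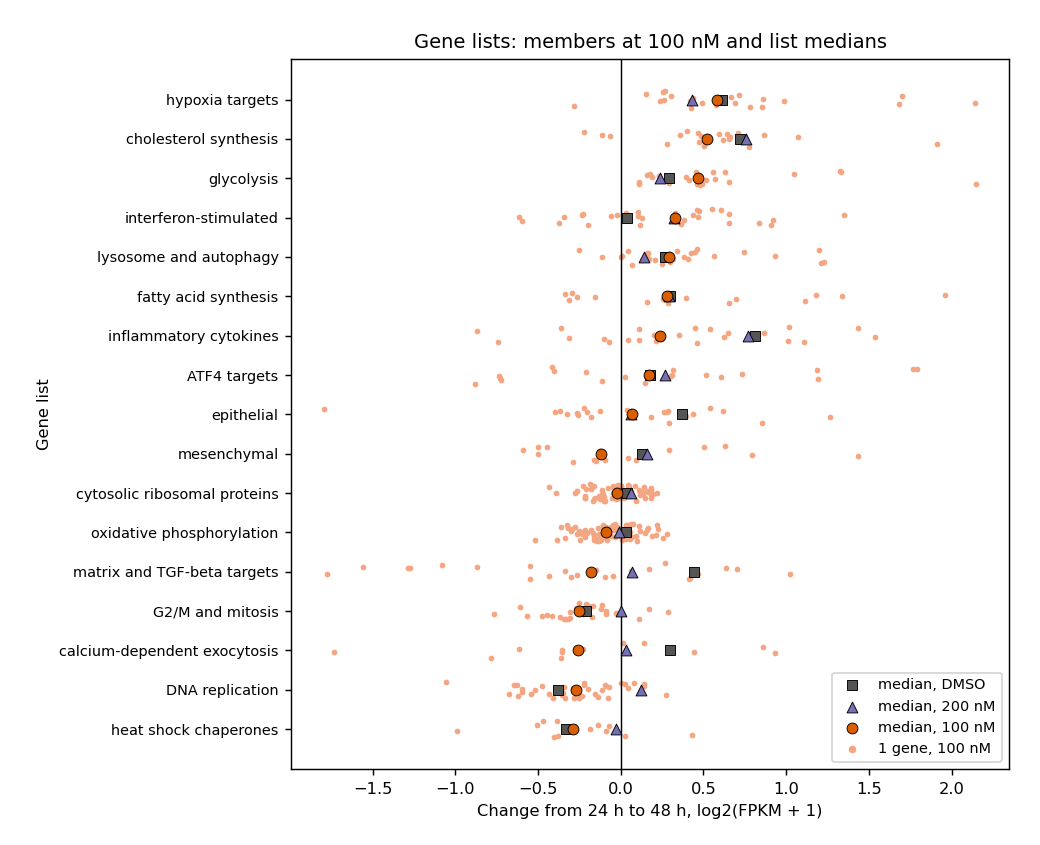
Change from 24 h to 48 h, as a difference in log2(FPKM + 1), of the tested members of 17 gene lists at 100 nM (small points), with the list medians at 100 nM (circles), in DMSO (squares) and at 200 nM (triangles). Hypoxia, sterol and glycolysis lists had medians above 0 in all 3 steps, and the matrix list was below 0 at 100 nM (-0.18) and above 0 in DMSO (0.44).

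Set side by side, the 3 time steps shared some of their rises, and falls were few in DMSO and at 200 nM. In DMSO, 286 of 11490 genes (2.49%) were at least 2-fold higher at 48 h and 15 (0.131%) lower, and at 200 nM 88 of 11760 (0.748%) were higher and 21 (0.179%) lower. Among the 111 rises at 100 nM, 42 were also higher in DMSO, which is 37.8% of the 111 and 14.7% of the 286, and 98 were higher there by any amount. At 200 nM, 22 of the 111 (19.8%) were among the 88. In all, 21 genes were at least 2-fold higher in each of the 3 steps, among them RASD1, SCD, INSIG1, BHLHE40, NDRG1, CSF1, ICAM1, IL6 and ELF3. Of the 99 genes lower at 100 nM, 3 were lower in DMSO and 3 at 200 nM (3.03% each), which are 3 of the 15 falls in DMSO and 3 of the 21 (14.3%) at 200 nM. Across the 11556 genes, the change at 100 nM had a Pearson correlation of 0.19 with that in DMSO and of 0.41 with that at 200 nM, and the changes in DMSO and at 200 nM had one of 0.30. Genes are not independent replicates, so these values describe the 6 libraries alone.

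The 100 nM step also followed the base composition of the transcripts. GC content is the percentage of G and C bases, and its representation can vary between libraries. Over 8468 genes whose FPKM averaged 5 or more over the 6 libraries, the change had a Spearman correlation with GC content of 0.37 at 100 nM, 0.11 in DMSO and -0.09 at 200 nM. The median change at 100 nM went from -0.18 in the genes with the lowest GC content to 0.17 in those with the highest. Genes at least 2-fold higher had a median GC content of 59.2%, those at least 2-fold lower 46.4%, and all tested genes 49.0%. With transcript length the correlation was -0.03. After the median of genes with similar GC content was subtracted, an alternative chosen after the data were seen, 87 genes were higher and 92 lower, of which 76 and 77 were among the 111 and 99.

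**Figure D5:**
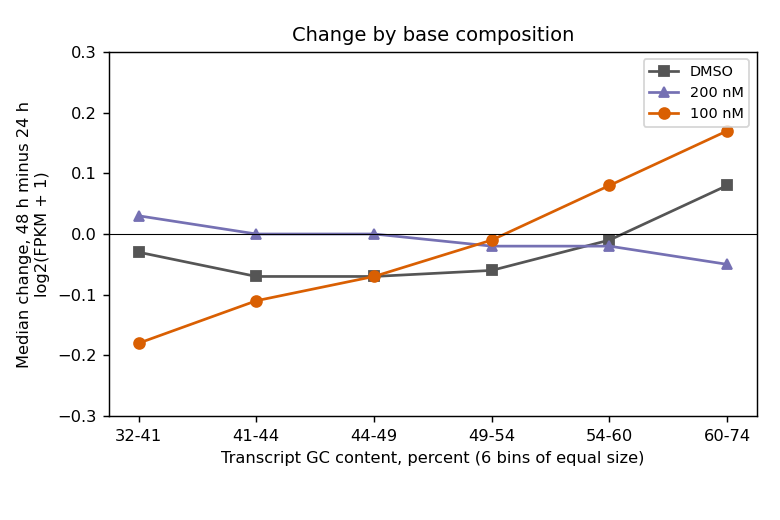
Median change from 24 h to 48 h, as a difference in log2(FPKM + 1), of 8468 genes in 6 bins of transcript GC content, at 100 nM (circles), in DMSO (squares) and at 200 nM (triangles). At 100 nM the median went from -0.18 in the lowest bin to 0.17 in the highest.

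Named genes and lists kept their direction with this subtraction where they were far from 0. CA9 was then at 2.01, SCD at 2.03, INSIG1 at 2.02, CCN2 at -1.53 and ANKRD1 at -1.67. The medians were 0.63 for hypoxia targets, 0.42 for glycolysis, 0.57 for sterol synthesis, -0.29 for the matrix list and -0.25 for replication. The FASN, TSC2 and PFKL transcripts have 65.3%, 60.6% and 63.5% GC, and these genes, at 0.97, 0.86 and 0.88, were no longer past 2-fold. The same held for CEBPB (0.99), LSS (0.94), TNFAIP2 (0.87), COL6A1 (0.86), ADAMTS1 (-0.94) and CCNE2 (-0.81), the single replication gene past 2-fold without the subtraction. In the other direction, LOX (1.14), the arrestin-domain gene ARRDC3 (1.13) and the sterol gene IDI1 (1.02) came past 2-fold. SLC7A5 of the integrated stress response list also did, as a fall (-1.02). What part of the other changes goes with base composition was not tested.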

How the data were processed

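The 6 libraries of MDA-MB-231 RNA, 1 for each dose and time, were grouped by their labels. The authors deposited FPKM per gene, and their processing notes name Bowtie2, RSEM and hg19 without versions. From these values the difference in log2(FPKM + 1) between 48 h and 24 h was computed at 100 nM, and the same for DMSO and 200 nM, with Python 3.11.15, numpy 2.4.6, pandas 2.3.3, scipy 1.17.1 and matplotlib 3.10.9. Genes were kept if their FPKM reached 1 at either time, and called at 2-fold. With 1 library on each side no test was made. Gene IDs were matched to symbols for 16585 of 16623 genes, and 38 had none.

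Genes named are those with the 15 largest rises and 15 largest falls that have a symbol, in each gene list the 5 tested members with the largest change and the 2 most abundant, and the genes the study names. The 38 lists and the members were chosen with earlier results of these data known. Library sizes of 15600000 to 18000000 fragments were inferred from steps in low values. GC content came from GENCODE 29 transcripts, available for 11335 of the tested genes (98.1%). The alternatives were pseudocounts of 0.1 and 0.5, other filters, TPM, median-of-ratios scaling, 1.5-fold and, chosen after seeing the data, subtraction of the median change of genes with similar GC content in 20 bins. The script that makes the calls was checked on simulated data, where it took all raised and most lowered genes.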

Additional observations from a re-analysis of the deposited data

Results flagged for a closer look

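A difference between the groups drew attention to 28 genes, which were at least 2-fold lower at 48 h at 100 nM and at least 2-fold higher at 48 h in DMSO. They are 28.3% of the 99 genes lower at 100 nM, and 277 of all 11556 tested genes (2.4%) were as much higher in DMSO. The opposite pattern held 0 genes, where 15 genes in all were lower in DMSO. Examples of the 28 are F2RL2, PCDH1, CRIP2, CLDN1, CDA and CCN2. AREG had 9.50 and 3.42 at 100 nM and 1.69 and 8.66 in DMSO and 18.8 and 23.4 at 200 nM, and SCG2, a secretory granule gene, had 2.85 and 0.38 at 100 nM and 0.19 and 2.14 in DMSO and 9.28 and 8.70 at 200 nM. The difference between the 2 time steps was not tested, since each has 1 library on each side. Among genes outside the 28, the 48 h values in DMSO, at 100 nM and at 200 nM were 4.35, 2.97 and 6.26 for SYTL2 and 14.1, 5.82 and 14.9 for MMP1. By RT-qPCR, the paper reports both genes as lower after PCI-24781. At 48 h here, both were lower than in DMSO at 100 nM and higher at 200 nM. The paper reports RGS2, JUP (γ-catenin) and CTNNA1 (α-catenin) as raised, and PLCB3 as lower. At 48 h in DMSO, at 100 nM and at 200 nM, RGS2 had 6.75, 5.08 and 11.19 and JUP had 13.92, 12.87 and 18.4. CTNNA1 had 219.39, 230.96 and 220.99, and PLCB3 had 32.17, 36.71 and 29.03. RGS2 and JUP were thus lower at 100 nM than in DMSO, and CTNNA1 and PLCB3 higher. Other genes measured in the paper are not set out here. What these values mean for the labels was not tested. An exchange of labels, a property of the 100 nM 48 h library and the time in drug cannot be told apart with these files. The exchange in question is with the DMSO 48 h library, and it would also change the DMSO step.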

How the results depend on the processing

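Counts of called genes depended on the pseudocount, the filter, the unit and the fold, and the sign of some list medians depended on the filter, the scaling and the subtraction by GC content. With a pseudocount of 0.1, 227 genes were higher and 236 lower at 100 nM, 565 and 42 in DMSO, and 203 and 69 at 200 nM. With 0.5, 154 were lower at 100 nM, 28 lower in DMSO, and 135 higher and 39 lower at 200 nM. With TPM, whose values are larger so that 1 added to them weighs less, 172 were lower at 100 nM, 435 higher and 33 lower in DMSO, and 141 higher and 42 lower at 200 nM. With a filter of FPKM 5 or more at either time, which by construction tests fewer genes, 62 were lower at 100 nM and 185 higher in DMSO. At 1.5-fold, which by construction takes more genes, there were 571 and 578 at 100 nM, 978 and 224 in DMSO, and 454 and 243 at 200 nM. Without a filter the counts stayed as they were by construction, since a gene with both values under 1 cannot pass 2-fold. For the other changes the cause was not tested.

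The filter at 5 turned the median of the mesenchymal list from -0.12 to 0.046 and that of the neuronal and neuroendocrine list from -0.11 to 0.27 at 100 nM. It also turned the epithelial median from 0.067 to -0.127 and the matrix protease median from -0.069 to 0.08, and it left 1 of 38 lists without a member. The subtraction by GC content turned the medians of 5 lists, all of them within 0.07 of 0 before it: epithelial (-0.034), calcium channels and Gq signalling (-0.044 to 0.087), NRF2 targets (0.005 to -0.03), ribosomal proteins (-0.019 to 0.018) and line identity (-0.024 to 0.117). Median-of-ratios scaling turned 3, ribosomal proteins (0.018), p53 and death genes (-0.03 to 0.005) and line identity (0.008), and TPM turned 2, NRF2 targets (-0.013) and calcium buffers (0.009 to -0.009). The other pseudocounts turned 0, and 28 of the 38 lists kept their sign throughout. Some medians moved without a change of sign. The cytokine median at 100 nM went from 0.24 to 0.42 with a pseudocount of 0.1 and to 0.45 with the filter at 5. The exocytosis median at 100 nM went from -0.26 to -0.48 with the filter at 5. Among genes named by the rule, the subtraction by GC content took 7 below 2-fold and brought 4 past it, while a pseudocount of 0.1 brought 25 past it, 0.5 brought 7 and TPM 12. The share of called genes at 100 nM that were higher was 52.9%, and it lay between 47.9% and 60.3% under the alternatives. Depth limits low genes most, since 3 fragments on a 2 kb transcript give an FPKM of about 0.0833 to 0.0962.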

Other observations

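Ribosome biogenesis genes, which build ribosomes in the nucleolus, were a list added after the values were seen. Of 39 tested, 38 were lower at 48 h at 100 nM by any amount, 15 fell at least 1.5-fold and 2 fell at least 2-fold. Among all 11556 genes, 6314 were lower by any amount, 5.00% fell at least 1.5-fold and 0.857% at least 2-fold. The 2 biogenesis genes that fell at least 2-fold were RRS1, from 18.6 to 7.70, and GPATCH4, from 24.9 to 11.6. The medians were -0.49 at 100 nM, -0.54 in DMSO and -0.32 at 200 nM, and -0.41 at 100 nM after the subtraction by GC content. NCL, the nucleolin gene, had 318 and 242 at 100 nM and 341 and 261 in DMSO and 239 and 234 at 200 nM. Of 371 tested genes with a ZNF symbol, a group of zinc finger factors also added after the values were seen, 1 rose at least 2-fold and 0 fell, with a median of -0.09. The median of all genes was -0.04, and 0.961% of them rose and 0.857% fell at least 2-fold.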
